A study of Homo sapiens with 9 samples.

Results

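The axon guidance receptors and ligands of A549 cells were examined after depletion of PRMT5 or of its partner MEP50. The members were chosen by gene symbol: protein-coding genes of the deposited count table whose names begin with EPHA, EPHB, EFNA, EFNB, SEMA, PLXN, SLIT (without SLITRK), ROBO, UNC5 or DPYSL, together with NRP1, NRP2, NTN1, NTN4, DCC, NEO1, NAV1, NAV2 and NAV3. The rule found 78 of the 51796 genes in the table: 35 receptor genes, 33 ligand genes, 7 genes of cytosolic proteins (DPYSL and NAV) and 3 that match a prefix without belonging to these families. Those 3 are UNC50, UNC5CL and the readthrough locus EFNA4-EFNA3. They are described apart in the text, but counts of all members include them unless stated. The set was proposed with the rises of DPYSL3, NAV2 and EPHB2 against the control already known, so all values of the members against the control are given as a description and without p-values.

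A549 is an established human lung adenocarcinoma line. The cells were depleted stably with short hairpin RNA and kept under puromycin, and the hairpin was directed at GFP in the control group, at PRMT5 in another, and in the last at MEP50, whose gene symbol is WDR77, with 3 libraries each. All 3 groups thus carried a hairpin and were under selection, and they differ by its target. Libraries were stranded, from total RNA depleted of ribosomal RNA, and the labels call them biological replicates without saying whether these were separate cultures, or how many hairpin sequences or clones each group held. Off-target effects of a hairpin cannot be told apart from loss of its target.

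Each library held 20806181 to 31586128 reads on genes. Levels are given in CPM, each gene's reads relative to all reads on genes after scaling by edgeR's TMM method. PRMT5 (ENSG00000100462) was at 212, 209 and 205 CPM in the control, 70.1, 67.5 and 69.2 in PRMT5 and 211, 199.7 and 200.4 in MEP50 knockdown. WDR77 (ENSG00000116455) was at 39.2, 39.6 and 39.3 CPM in the control, 43.2, 46.9 and 42.1 in PRMT5 and 13.6, 10.7 and 13.3 in MEP50 knockdown. Each target was therefore low in its own group. Of 8 epithelial markers, KRT8 and KRT18 were at about 3223 and 3195 CPM in the control and were called lower in both knockdowns. ELF3 was also called lower in both, at 58.2 CPM in the control, 19.4 in PRMT5 and 28.8 in MEP50 knockdown. KRT19 had at most 2 reads in a library, EPCAM was at 0.159 CPM in the control, and CLDN4 had too few reads to be tested. CDH1, E-cadherin, was at 40.1 CPM in the control, called lower in PRMT5 (34.9) and higher in MEP50 knockdown (75.6), and KRT7 was called higher in MEP50 knockdown (2.52 to 4.19 CPM). Endothelial and blood marker lists summed to at most 0.27 CPM in any library. The neuronal markers STMN2 and NEFM had 0 reads in all libraries, although the neuronal list as a whole summed to 187 to 200 CPM in the control, 48.2 to 50.8 CPM in the PRMT5 group and 68.0 to 73.4 CPM in the MEP50 group, mostly through MAP2. The neuronal TUBB3, below 2 CPM in all group means, was instead called higher in both knockdowns, and SYT1 in PRMT5 knockdown. SYP and SNAP25 were called lower in MEP50 knockdown. The fibroblast list, mostly COL3A1, summed to 108 to 110, 221 to 233 and 273 to 291 CPM in the same order, although its member LUM was at 5.17, 0.629 and 7.90 CPM, called lower in PRMT5 and higher in MEP50 knockdown. The list for glia and Schwann cells, mostly MBP, summed to 33.4 to 38.1, 46.9 to 52.2 and 55.0 to 59.0 CPM. The part of these marker genes in the results that follow was not tested. In bulk RNA, fewer cells that express a gene and less RNA per cell cannot be told apart.

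Axon guidance molecules steer growing nerve processes and also act in epithelia, vessels and tumours. Ephrins are membrane-bound ligands of the Eph receptor tyrosine kinases. Semaphorins signal through plexins, with neuropilins as co-receptors for most of the secreted class, SLIT proteins bind ROBO receptors, and netrins bind DCC, neogenin and the UNC5 receptors. Inside the cell, the collapsin response mediators encoded by the DPYSL genes and the neuron navigators encoded by the NAV genes act on microtubules. PRMT5 is an arginine methyltransferase that works in a complex with MEP50, with histones and proteins of the splicing machinery among its substrates.

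Of the 78 members, 58 had enough reads to be tested. The 20 others had at most 14 reads in any library, and 3 of them (SLIT1, SEMA6D and EFNA4-EFNA3) had 0. A filter of this kind also keeps a gene that is high in one group only, so the tested members are not the whole set. Among the untested genes were the netrin receptors DCC, UNC5A and UNC5C, the receptors ROBO2 and ROBO4, the plexin PLXNA4, the ephrin EFNB3 and the Eph receptors EPHA1, EPHA7, EPHA8, EPHB1, EPHB3 and EPHB6. DCC had 16, 19 and 7 reads summed over the 3 libraries of the control, PRMT5 and MEP50 groups. EPHB3, also a receptor of B-type ephrins, had 6, 14 and 18. In the same order EPHB1 had 6, 4 and 5, EPHB6 had 5, 3 and 3, and EFNB3 had 3, 6 and 0. SEMA3G had the most reads of the untested genes, with 33, 31 and 13.

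To compare genes with each other, CPM were divided by the length of the merged exons in kilobases. On this scale the control cells had 1 or 2 dominant receptors in most families. The Eph receptors EPHA3 and EPHA2 were at 34.3 and 32.0 CPM per kilobase, EPHB4 at 7.12 and EPHA5 at 2.67, and the 4 other tested Eph receptors were below 1. PLXNB2 led the plexins with 18.8, before PLXND1 with 6.77 and PLXNA1 with 5.90. NRP1 stood at 15.4 and NRP2 at 0.192, and ROBO1 at 16.0 against 1.06 for ROBO3. Among ligands, SEMA3C was highest with 28.2, followed by NTN4 with 18.7 and EFNA5 with 7.60. DPYSL2 had 47.3, the highest level of all members. The rank of the receptors shifted within the Eph family: EPHA3 went from 34.3 to 14.6 and 21.5 CPM per kilobase in the PRMT5 and MEP50 groups, below EPHA2 in both, and EPHB2 went from 0.236 to 2.76 and 3.40.

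**Figure D1:**
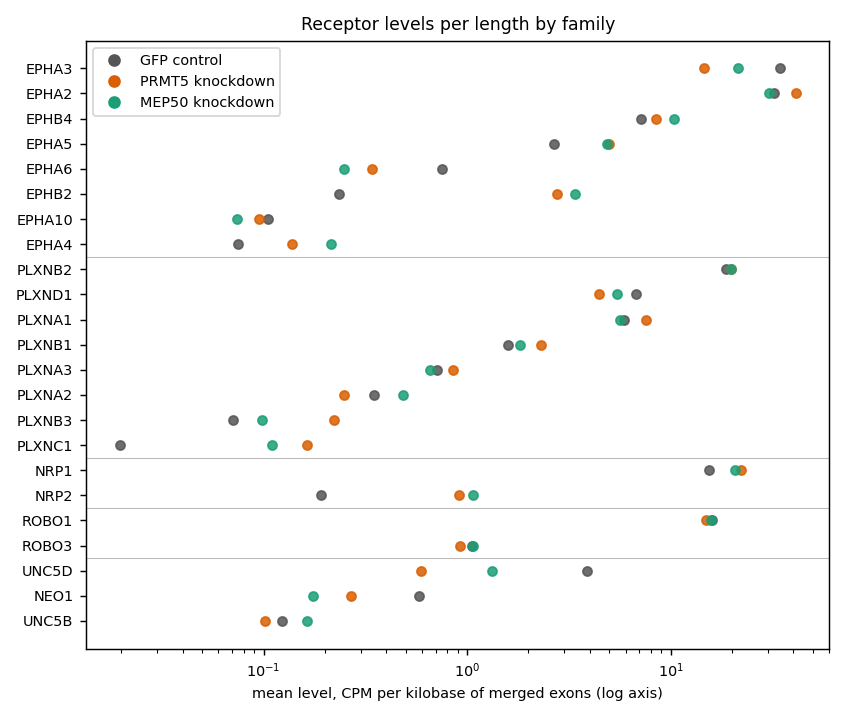
Mean level of the 23 tested receptor genes in CPM per kilobase of merged exons (log axis), in the control (grey), PRMT5 knockdown (orange) and MEP50 knockdown (green), 3 libraries each, with lines between families (from the top: Eph receptors, plexins, neuropilins, ROBO receptors, netrin receptors). EPHA3, EPHA2, PLXNB2, NRP1 and ROBO1 lie above 10 in every group, and EPHB2, NRP2 and PLXNC1 have their control point to the left of both knockdown points.

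Against the control, 31 of the 58 tested members were called higher and 15 lower in PRMT5 knockdown, by edgeR's quasi-likelihood test with an adjusted p below 0.05 over all 14582 genes tested. Many genes moved in these cells: 51.0% of all tested genes were called, 26.1% higher and 24.9% lower. In MEP50 knockdown 25 members were called higher and 13 lower, where 51.7% of all genes were called, 26.5% higher and 25.2% lower. The median log2 fold change of the tested members was 0.22 in PRMT5 and 0.18 in MEP50 knockdown, beside 0.00 over all genes in both, and the median absolute change was 0.71 and 0.52 beside 0.21 and 0.23. Changes that were called and at least 2-fold were seen in 17 and 22 members, where 7.25% and 7.51% of all genes reached that size. Without DPYSL3, NAV2 and EPHB2 the counts were 28 higher and 15 lower in PRMT5, and 22 and 13 in MEP50 knockdown. Without the 3 genes matched by name only they were 30 and 14, and 24 and 12. Nothing is read from these counts, since the set was proposed from the same contrasts.

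Both knockdowns were set against the same control libraries. EFNA5 and PLXNA2 were called in opposite directions, and 11 members were called in neither: DPYSL4, EFNA4, EPHA10, PLXNA3, ROBO3, SEMA3F, SEMA4D, SEMA6C, SEMA7A, SLIT2 and UNC5B. By role, 12 of 26 tested ligands were called higher and 7 lower in PRMT5 knockdown, and 11 and 7 in MEP50 knockdown. Of 23 tested receptors, 12 were higher and 7 lower in the former and 8 and 5 in the latter. Of the 7 DPYSL and NAV genes, 6 and 5 were higher and 0 lower, with DPYSL3 and NAV2, whose rises were already known, among them. Over all tested genes, 26.1% were called higher and 24.9% lower in PRMT5 knockdown, and 26.5% and 25.2% in MEP50 knockdown. These counts, and those by family below, are a description only.

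**Figure D2:**
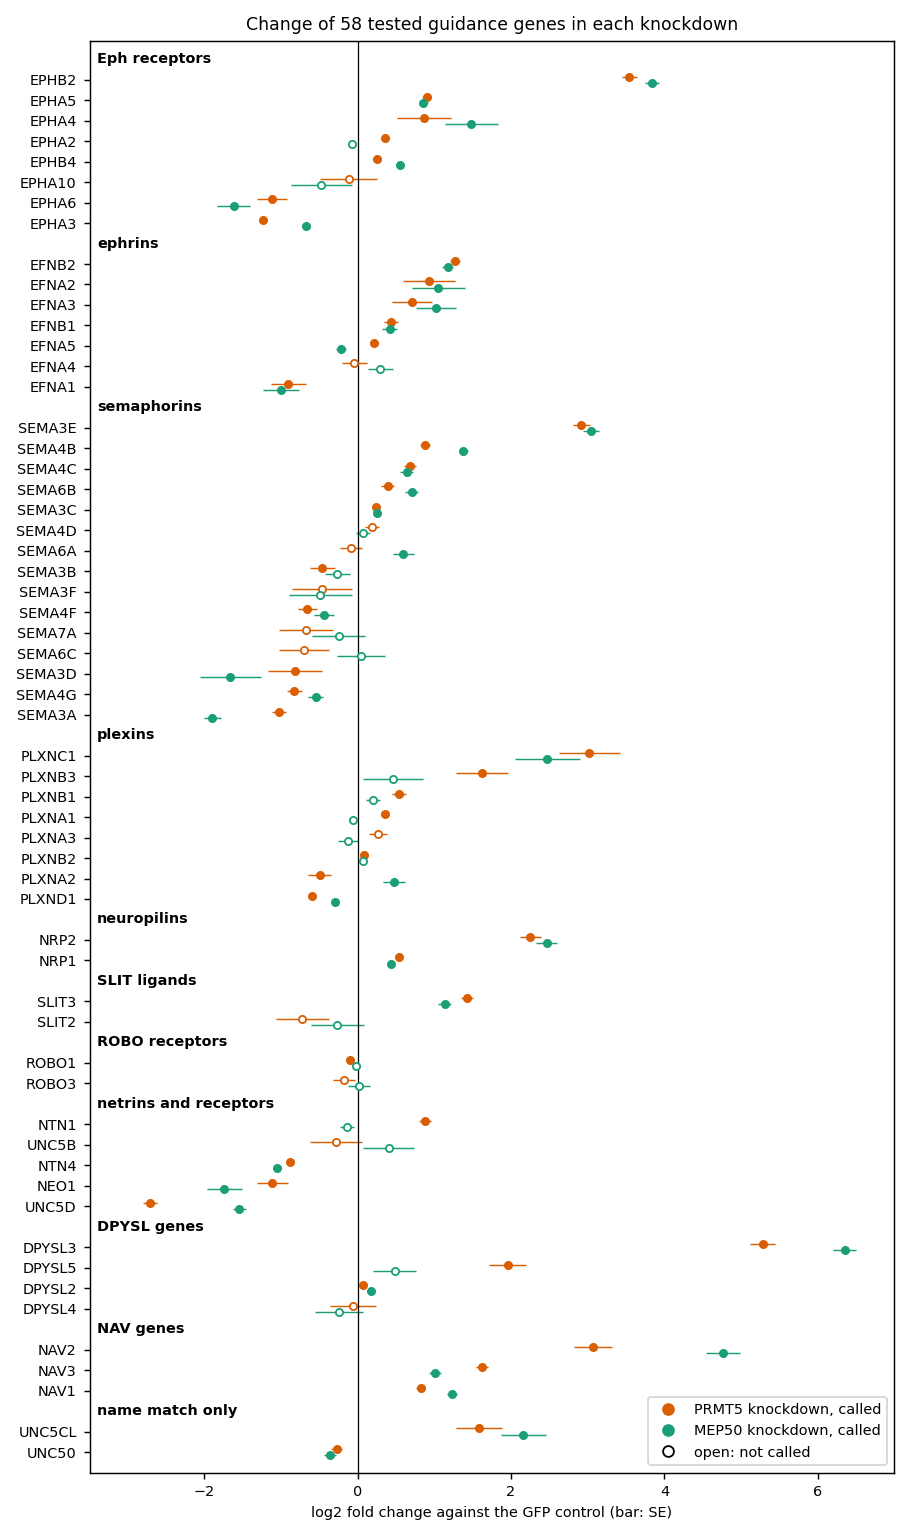
Log2 fold change against the GFP control, with its SE, for the 58 tested members by family, in PRMT5 knockdown (orange) and MEP50 knockdown (green); filled points were called by edgeR's test and open points were not. DPYSL3, NAV2, EPHB2, SEMA3E, PLXNC1 and NRP2 lie farthest to the right and UNC5D farthest to the left, and the points of EFNA5 and PLXNA2 lie on opposite sides of 0.

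Promoters are shown for EPHB2, SEMA3E and PLXNC1, the 3 receptor or ligand genes whose fitted rise was more than 5-fold in both knockdowns. The windows run from 250 bases before to 50 after the annotated start of the gene, 5′ to 3′ on the gene's strand, from RefSeq on GRCh38.p14. That is another build than the hg19 of the counts. Capitals mark matches, on either strand, to the SMAD element CAGAC, the E-box CACCTG of SNAI and ZEB factors, or the AP-1 element TGANTCA. These 3 motifs do not contain each other.
EPHB2, chr1:22710588-22710887, plus strand: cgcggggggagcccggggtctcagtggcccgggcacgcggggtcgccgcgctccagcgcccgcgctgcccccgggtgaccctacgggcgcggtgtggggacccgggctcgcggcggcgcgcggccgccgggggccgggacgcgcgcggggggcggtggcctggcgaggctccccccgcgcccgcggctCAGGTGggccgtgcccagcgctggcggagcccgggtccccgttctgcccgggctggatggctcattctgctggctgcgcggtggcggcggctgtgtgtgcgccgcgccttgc
SEMA3E, chr7:83649090-83649389, minus strand: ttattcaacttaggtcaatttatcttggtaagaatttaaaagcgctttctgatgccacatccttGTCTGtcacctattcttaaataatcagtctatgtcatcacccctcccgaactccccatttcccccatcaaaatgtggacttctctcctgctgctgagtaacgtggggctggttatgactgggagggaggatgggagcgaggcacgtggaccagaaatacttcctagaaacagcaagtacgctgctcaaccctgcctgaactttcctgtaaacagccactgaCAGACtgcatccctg
PLXNC1, chr12:94262369-94262668, plus strand: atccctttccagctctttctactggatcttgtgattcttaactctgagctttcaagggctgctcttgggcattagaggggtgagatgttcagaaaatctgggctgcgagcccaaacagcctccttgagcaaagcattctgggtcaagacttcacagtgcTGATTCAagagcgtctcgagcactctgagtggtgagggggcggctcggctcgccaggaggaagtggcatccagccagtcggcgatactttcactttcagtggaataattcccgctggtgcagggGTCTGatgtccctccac
The EPHB2 window had 83.0% G and C and held 1 E-box, that of SEMA3E 47.3% and 2 SMAD elements, and that of PLXNC1 53.7% with 1 AP-1 and 1 SMAD element. Windows were found for 68 of the 78 members, among them UNC50, UNC5CL and EFNA4-EFNA3, which match by name only. A SMAD element was in 28 of the 68 windows (41.2%) beside 44.3% of the windows of 15301 protein-coding genes. These 28 include UNC5CL, EFNA4 and EFNA4-EFNA3, of which the last 2 have the same window. An E-box was in 10 (14.7%) beside 19.8%, and an AP-1 element in 1 (1.47%, PLXNC1) beside 5.74%. The median share of G and C was 66.2% in members and 63% in all. A match is a description of the letters, and binding was not measured.

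The Eph receptors split. EPHB2, a receptor of B-type ephrins, EPHA5, EPHB4 and the scarce EPHA4 were called higher in both knockdowns. EPHA3, the most abundant Eph receptor of the control cells, and EPHA6 were called lower in both. EPHB2 (ENSG00000133216) was at 2.47, 2.93 and 3.44 CPM in the control, 36.2, 32.3 and 35.1 in PRMT5 and 44.8, 41.5 and 41.2 in MEP50 knockdown. Every knockdown library lay above 30 CPM and every control library below 4. The log2 fold changes were 3.54 ± 0.10 in PRMT5 and 3.84 ± 0.10 in MEP50 knockdown, where ± is the SE of the fit here and for all log2 values. EPHA3 (ENSG00000044524) was at 226, 231 and 229.7 CPM in the control, 103, 98.4 and 91.1 in PRMT5 and 138, 146 and 147 in MEP50 knockdown. The groups did not overlap, with changes of -1.23 ± 0.04 in PRMT5 and -0.67 ± 0.04 in MEP50 knockdown. EPHA5, a receptor of A-type ephrins, went from 26.3 ± 0.627 CPM in the control to 48.9 ± 1.32 in PRMT5 and 47.7 ± 3.44 in MEP50 knockdown (mean ± SD, n = 3 libraries in every group, as in all such values here). EPHB4, the main receptor of ephrin-B2, went from 45.8 ± 0.976 CPM in the control to 54.5 ± 1.33 in PRMT5 and 66.8 ± 4.26 in MEP50 knockdown. EPHA6 was low throughout and fell from 4.72 ± 0.388 CPM in the control to 2.15 ± 0.481 in PRMT5 and 1.56 ± 0.361 in MEP50 knockdown.

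EPHA2, a receptor that binds ephrin-A1, was called in PRMT5 and not in MEP50 knockdown. EPHA2 (ENSG00000142627) was at 129.8, 137 and 133 CPM in the control, 169.6, 173 and 169.9 in PRMT5 and 132, 123 and 125 in MEP50 knockdown. The PRMT5 libraries lay above all others, and the MEP50 libraries overlapped the control, with log2 fold changes of 0.36 ± 0.03 and -0.07 ± 0.04. In MEP50 knockdown EPHA2 was called lower under scaling by library totals (-0.09) and without MEP50 knockdown replicate 1 (-0.10). EPHA4 was at a very low level, 0.565 ± 0.242 CPM in the control, 1.04 ± 0.263 in PRMT5 and 1.61 ± 0.314 in MEP50 knockdown, with 47, 91 and 111 reads. It was called higher in both, with log2 fold changes of 0.86 ± 0.36 in PRMT5 and 1.48 ± 0.35 in MEP50 knockdown. Its call in PRMT5 knockdown was lost in 7 of 16 alternatives, with values of 0.58 to 0.87, and the 4 single libraries whose removal lost it were control replicates 1 and 3 and PRMT5 knockdown replicates 1 and 3.

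Among the ephrins, the ligand EFNB2 showed the largest change with a level above 10 CPM. EFNB2 (ENSG00000125266) was at 16.2, 15.4 and 17.9 CPM in the control, 38.8, 40.5 and 39.8 in PRMT5 and 37.1, 37.8 and 36.6 in MEP50 knockdown. All 6 knockdown libraries lay at more than 2 times the control mean, and the log2 fold changes were 1.27 ± 0.07 and 1.17 ± 0.07. EFNB1, the other tested B-type ephrin, went from 11.5 ± 0.697 CPM in the control to 15.6 ± 1.76 in PRMT5 and 15.4 ± 0.242 in MEP50 knockdown. EPHB2 and EPHB4, the tested receptors of the EphB class, and both tested B-type ligands were called higher in both knockdowns, with EPHB2 among the genes from which the set was proposed. EPHB4 and EFNB1 were chosen after their values were seen. Their log2 changes were 0.25 ± 0.05 and 0.44 ± 0.09 in PRMT5, and 0.55 ± 0.05 and 0.42 ± 0.10 in MEP50 knockdown. Over all tested genes 26.1% and 26.5% were called higher in the 2 knockdowns, and nothing is read from these B-class calls. The A-type ligands did not move together: EFNA1 was called lower, EFNA2 and EFNA3 higher, EFNA4 in neither direction, and EFNA5 in opposite directions. EFNA1 went from 2.92 ± 0.121 CPM in the control to 1.55 ± 0.324 in PRMT5 and 1.47 ± 0.310 in MEP50 knockdown. EFNA2 went from 0.607 ± 0.245 CPM in the control to 1.16 ± 0.117 in PRMT5 and 1.26 ± 0.0981 in MEP50 knockdown, and EFNA3 from 1.12 ± 0.110 CPM in the control to 1.85 ± 0.0626 in PRMT5 and 2.26 ± 0.578 in MEP50 knockdown, both low in all groups. The call of EFNA2 was lost without control replicate 3 in both knockdowns (0.62 and 0.75) and without PRMT5 knockdown replicate 3 in that knockdown (0.85). The call of EFNA3 in PRMT5 knockdown was lost without control replicate 1 (0.65), control replicate 3 (0.68) or PRMT5 knockdown replicate 3 (0.69).

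EFNA5, the A-type ephrin with the highest level, was between the 2 knockdowns in the control. EFNA5 (ENSG00000184349) was at 44.7, 41.5 and 43.8 CPM in the control, 46.3, 51.5 and 52.3 in PRMT5 and 39.1, 33.9 and 38.5 in MEP50 knockdown. The 3 groups did not overlap. Its log2 fold change was 0.21 ± 0.06 in PRMT5 and -0.22 ± 0.06 in MEP50 knockdown.

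Of 15 tested semaphorins, 5 were called higher and 5 lower in PRMT5 knockdown, and 6 and 4 in MEP50 knockdown. The secreted SEMA3E, which binds PLXND1 without a neuropilin, had the largest change of the family. SEMA3E (ENSG00000170381) was at 2.51, 4.01 and 2.83 CPM in the control, 23.9, 24.2 and 23.2 in PRMT5 and 26.2, 25.5 and 26.2 in MEP50 knockdown. Knockdown libraries were all above 20 CPM and control libraries all below 5, and the changes were 2.91 ± 0.11 and 3.04 ± 0.11. SEMA3A, the classical collapsin that binds NRP1 and A-type plexins, went the other way. SEMA3A (ENSG00000075213) was at 22.0, 21.3 and 19.9 CPM in the control, 11.1, 10.7 and 9.21 in PRMT5 and 5.07, 5.84 and 5.99 in MEP50 knockdown. Its 3 groups did not overlap, and the changes were -1.03 ± 0.09 and -1.90 ± 0.11. SEMA3C, the semaphorin with the highest level per length, went from 177 ± 1.26 CPM in the control to 208 ± 4.13 in PRMT5 and 211 ± 6.02 in MEP50 knockdown, a small change of 0.23 ± 0.03 and 0.26 ± 0.03. SEMA3D, also secreted, had 93 reads over the control libraries, 56 in PRMT5 and 25 in MEP50 knockdown, with log2 fold changes of -0.82 ± 0.35 and -1.66 ± 0.40. Its call in PRMT5 knockdown was lost in 11 of the 15 alternatives that gave a value, at -0.94 to -0.58, and among the single libraries it was kept only without PRMT5 knockdown replicate 1.

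The membrane-bound class 4 semaphorins were divided as well. SEMA4B (ENSG00000185033) was at 24.5, 27.3 and 24.9 CPM in the control, 48.9, 43.8 and 48.5 in PRMT5 and 62.2, 69.6 and 68.0 in MEP50 knockdown. SEMA4B was thus lowest in the control and highest in MEP50 knockdown without overlap, with changes of 0.88 ± 0.06 and 1.38 ± 0.06. SEMA4C, a ligand of PLXNB2, went from 13.9 ± 0.561 CPM in the control to 22.2 ± 1.93 in PRMT5 and 21.6 ± 1.26 in MEP50 knockdown. In the opposite direction SEMA4G went from 18.6 ± 1.18 CPM in the control to 10.5 ± 1.26 in PRMT5 and 12.7 ± 1.60 in MEP50 knockdown, and SEMA4F from 10.4 ± 1.26 CPM in the control to 6.61 ± 0.841 in PRMT5 and 7.63 ± 1.22 in MEP50 knockdown. SEMA4D, the ligand of PLXNB1, was called in neither knockdown. In the class 6 genes, which encode transmembrane ligands of A-type plexins, SEMA6B went from 24.5 ± 3.26 CPM in the control to 32.1 ± 2.63 in PRMT5 and 40.1 ± 3.74 in MEP50 knockdown. SEMA6A was at 4.89 ± 0.320 CPM in the control, 4.63 ± 0.364 in PRMT5 and 7.39 ± 0.768 in MEP50 knockdown, called higher in MEP50 knockdown only.

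**Figure D3:**
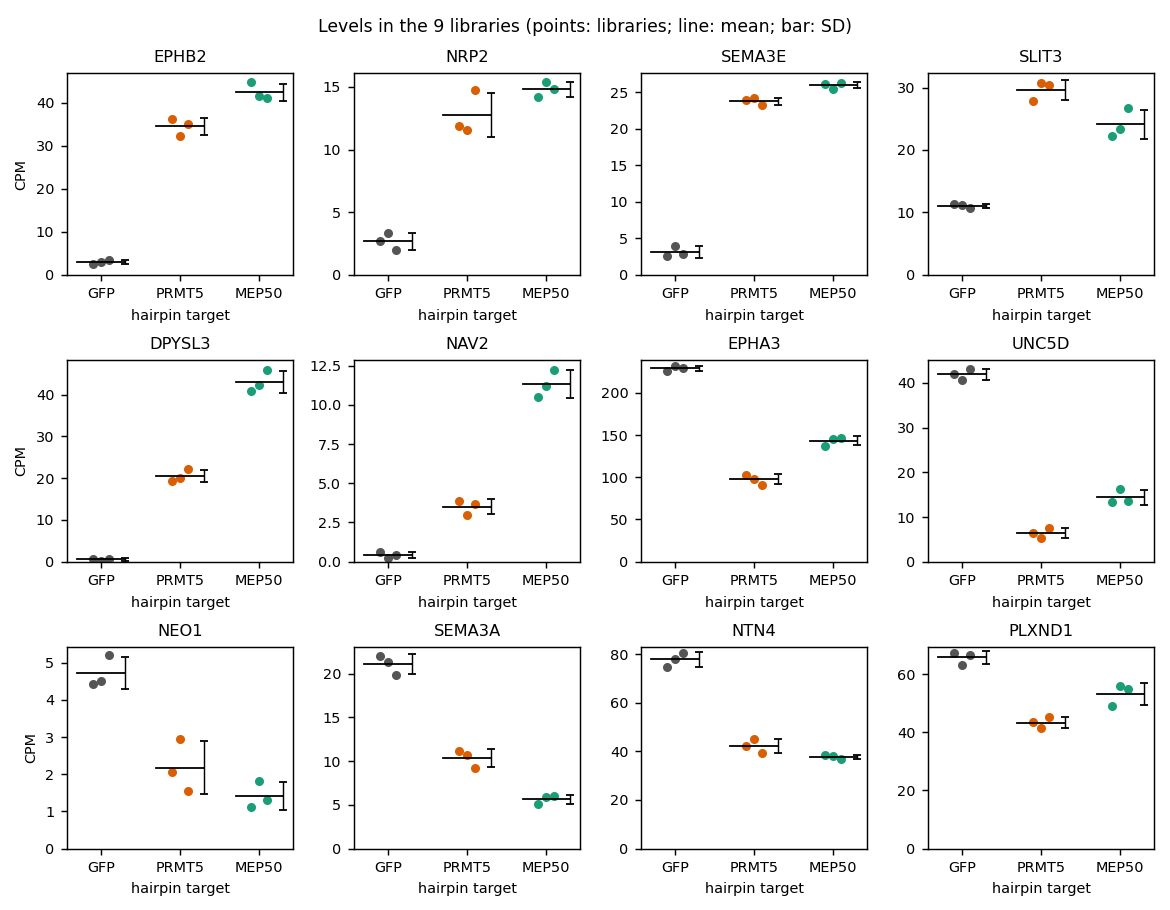
CPM of 12 members in each of the 9 libraries (points), with the mean (line) and SD (bar) of the 3 libraries of the GFP control, PRMT5 knockdown and MEP50 knockdown; every axis starts at 0. The upper 6 genes (EPHB2, NRP2, SEMA3E, SLIT3, DPYSL3 and NAV2) have all control libraries below all knockdown libraries, and the lower 6 (EPHA3, UNC5D, NEO1, SEMA3A, NTN4 and PLXND1) have all of them above.

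Plexins, the signalling receptors of semaphorins, had 5 called higher and 2 lower of 8 tested in PRMT5 knockdown, and 2 and 1 in MEP50 knockdown. The knockdowns themselves are compared gene by gene further on. PLXNC1, the receptor of SEMA7A, had the largest change at a very low level. PLXNC1 (ENSG00000136040) was at 0.160, 0.135 and 0.290 CPM in the control, 1.89, 1.45 and 1.51 in PRMT5 and 1.16, 0.888 and 1.23 in MEP50 knockdown. Its counts were 16 reads in the control, 141 in PRMT5 and 78 in MEP50 knockdown, a ratio of 8.25 and 5.70 after scaling for depth. The control libraries held 4, 4 and 8 reads, so PLXNC1 passed the read filter through its knockdown libraries. These ratios are therefore a description only. PLXND1, the receptor of SEMA3E, was called lower in both. PLXND1 (ENSG00000004399) was at 67.5, 63.4 and 66.9 CPM in the control, 43.6, 41.5 and 45.2 in PRMT5 and 49.1, 56.0 and 54.8 in MEP50 knockdown. No knockdown library reached the control range, and the changes were -0.60 ± 0.05 and -0.30 ± 0.05. Ligand and receptor of this pair therefore lay on opposite sides of the control. No ligand and receptor pairs were set for a test, so this is a description only.

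The abundant PLXNB2 hardly moved, with 136 ± 3.09 CPM in the control, 144 ± 3.64 in PRMT5 and 143 ± 4.14 in MEP50 knockdown. Its call in PRMT5 knockdown, at a change of 0.08 ± 0.03, was lost in 14 of 16 alternatives, with values of 0.06 to 0.09, and the 2 that kept it were scaling by library totals and the fit without control replicate 2. PLXNB1 went from 15.5 ± 2.19 CPM in the control to 22.5 ± 1.31 in PRMT5 and 17.7 ± 1.73 in MEP50 knockdown, called in PRMT5 knockdown. PLXNB3 had 41, 135 and 48 reads in the control, PRMT5 and MEP50 groups and was called higher in PRMT5 knockdown at 1.62 ± 0.34. PLXNA1, a partner of neuropilins, went from 64.5 ± 2.25 CPM in the control to 82.6 ± 2.48 in PRMT5 and 61.6 ± 2.92 in MEP50 knockdown, with the PRMT5 libraries above the rest and the MEP50 libraries overlapping the control. PLXNA2, a receptor of SEMA6A, was called lower in PRMT5 and higher in MEP50 knockdown. PLXNA2 (ENSG00000076356) was at 4.43, 4.72 and 5.29 CPM in the control, 3.39, 3.65 and 3.19 in PRMT5 and 6.28, 7.06 and 6.69 in MEP50 knockdown. Its groups did not overlap, and the changes were -0.50 ± 0.15 and 0.47 ± 0.14.

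Both neuropilins were called higher in both knockdowns. NRP1 (ENSG00000099250) was at 173, 179.9 and 179 CPM in the control, 251, 258 and 259.8 in PRMT5 and 241, 234 and 239 in MEP50 knockdown. NRP1, co-receptor of SEMA3A and of vascular endothelial growth factor, thus rose by a small step from a high level, with changes of 0.53 ± 0.03 and 0.43 ± 0.03. NRP2 (ENSG00000118257) was at 2.67, 3.34 and 1.99 CPM in the control, 11.9, 11.6 and 14.8 in PRMT5 and 14.2, 15.4 and 14.9 in MEP50 knockdown. NRP2, which binds SEMA3C and SEMA3F, had no overlap between control and knockdown libraries, and changes of 2.25 ± 0.14 and 2.46 ± 0.14.

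SLIT3, a secreted ligand of ROBO receptors, was called higher in both knockdowns. SLIT3 (ENSG00000184347) was at 11.4, 11.1 and 10.7 CPM in the control, 27.8, 30.7 and 30.5 in PRMT5 and 22.3, 23.3 and 26.7 in MEP50 knockdown. SLIT3 was above the control range in all 6 knockdown libraries, with changes of 1.42 ± 0.08 and 1.13 ± 0.08. ROBO1 (ENSG00000169855) was at 173, 176 and 174 CPM in the control, 167, 158 and 161 in PRMT5 and 173, 170.5 and 169 in MEP50 knockdown. ROBO1, the more abundant of the 2 tested ROBO receptors, was called lower in PRMT5 knockdown at -0.10 ± 0.03 and not called in MEP50 knockdown (-0.03 ± 0.03). SLIT2 and ROBO3 were called in neither.

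Of 8 netrin and netrin receptor genes, 5 were tested: 1 was called higher and 3 lower in PRMT5 knockdown, and 0 and 3 in MEP50 knockdown. UNC5D, a repulsive netrin receptor that also binds FLRT proteins, had the largest fall of all members in PRMT5 knockdown. UNC5D (ENSG00000156687) was at 42.1, 40.6 and 43.1 CPM in the control, 6.39, 5.35 and 7.45 in PRMT5 and 13.3, 16.4 and 13.5 in MEP50 knockdown. PRMT5 libraries lay below MEP50 libraries and these below the control, with changes of -2.71 ± 0.09 and -1.55 ± 0.09. NEO1 (ENSG00000067141) was at 4.43, 4.52 and 5.22 CPM in the control, 2.05, 2.94 and 1.55 in PRMT5 and 1.11, 1.82 and 1.30 in MEP50 knockdown. NEO1 encodes neogenin, which binds netrins and repulsive guidance molecules, and its changes were -1.11 ± 0.20 and -1.74 ± 0.23. NTN4 (ENSG00000074527) was at 74.7, 78.0 and 80.6 CPM in the control, 42.0, 45.0 and 39.3 in PRMT5 and 38.3, 37.9 and 36.7 in MEP50 knockdown. NTN4, a netrin of basement membranes, was lower in every knockdown library than in any control library, with changes of -0.89 ± 0.05 and -1.05 ± 0.05. NTN1 (ENSG00000065320) was at 14.6, 15.1 and 15.2 CPM in the control, 25.6, 29.3 and 27.8 in PRMT5 and 13.3, 14.7 and 12.9 in MEP50 knockdown. NTN1, the founding netrin, stood apart: it was higher in PRMT5 knockdown (0.88 ± 0.08) and overlapped the control in MEP50 knockdown (-0.14 ± 0.09). UNC5B was called in neither. Of the genes matched by name only, UNC5CL went from 0.636 ± 0.291 CPM in the control to 1.88 ± 0.336 in PRMT5 and 2.80 ± 0.385 in MEP50 knockdown and UNC50 from 24.2 ± 0.505 CPM in the control to 20.0 ± 0.319 in PRMT5 and 18.8 ± 0.994 in MEP50 knockdown.

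Among the cytosolic mediators, DPYSL3 had the largest rise of all members in both knockdowns. DPYSL3 (ENSG00000113657) was at 0.678, 0.202 and 0.724 CPM in the control, 19.3, 20.1 and 22.1 in PRMT5 and 40.8, 42.4 and 46.0 in MEP50 knockdown. DPYSL3 had 43 reads over the 3 control libraries against 1814 and 3057, a ratio of 39.5 and 83.1 after scaling for depth. It was one of the genes from which the set was proposed, so these ratios are a description only. NAV2 (ENSG00000166833) was at 0.639, 0.236 and 0.398 CPM in the control, 3.87, 2.97 and 3.69 in PRMT5 and 10.5, 11.2 and 12.3 in MEP50 knockdown. NAV2 had 34, 307 and 805 reads, and changes of 3.06 ± 0.25 and 4.76 ± 0.22. NAV1 went from 24.8 ± 2.06 CPM in the control to 43.8 ± 1.66 in PRMT5 and 58.1 ± 3.92 in MEP50 knockdown. NAV3 went from 10.6 ± 0.519 CPM in the control to 32.8 ± 2.20 in PRMT5 and 21.4 ± 0.777 in MEP50 knockdown, so all 3 navigators were above the control. DPYSL5 was at 0.937 ± 0.275 CPM in the control, 3.67 ± 0.609 in PRMT5 and 1.33 ± 0.0695 in MEP50 knockdown, called in PRMT5 knockdown. DPYSL2, the most abundant member, changed little, from 345 ± 7.18 CPM in the control to 362 ± 3.90 in PRMT5 and 389 ± 5.55 in MEP50 knockdown. Its call in PRMT5 knockdown (0.07 ± 0.03) was lost in 9 of 16 alternatives, with values of 0.05 to 0.07, among them the fits without control replicate 2 or 3, without any one library of the PRMT5 group, and without MEP50 knockdown replicate 2 or 3.

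The direct comparison of PRMT5 with MEP50 knockdown was not used to propose the set. Of the 58 tested members, 14 were called higher in PRMT5 knockdown and 14 higher in MEP50 knockdown, which is 48.3% of the tested members, where 39.7% of all tested genes were called (19.2% higher in PRMT5 and 20.5% higher in MEP50). Called differences of at least 2-fold numbered 6, where 3.19% of all genes had one: DPYSL5, PLXNB3 and NTN1 were higher in PRMT5, and UNC5D, DPYSL3 and NAV2 higher in MEP50 knockdown. The median difference was -0.05 beside 0.00 over all genes. The median absolute difference was 0.34 beside 0.18. Without DPYSL3, NAV2 and EPHB2, the genes from which the set was proposed, 14 of 55 tested members were higher in PRMT5 and 11 higher in MEP50 knockdown (45.5%), the median was 0.01, and 4 called differences were at least 2-fold, 3 and 1 in the same order. The difference in DPYSL3 (-1.07 ± 0.08), NAV2 (-1.70 ± 0.15) and EPHB2 (-0.30 ± 0.07), all higher in MEP50 knockdown, is given without a test because their levels were known beforehand.

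Higher in PRMT5 than in MEP50 knockdown were several receptors and ligands, with adjusted p by edgeR's quasi-likelihood test and differences as log2, PRMT5 minus MEP50. NTN1 differed by 1.02 ± 0.08 with an edgeR adjusted p of 1.57e-13, with all 3 PRMT5 libraries above all 3 MEP50 libraries. SEMA3A, lower than the control in both, was less low in PRMT5 knockdown, by 0.87 ± 0.11 with an edgeR adjusted p of 3.94e-08. DPYSL5 differed by 1.47 ± 0.24 (edgeR adjusted p = 2.68e-06) and NAV3 by 0.62 ± 0.07 (edgeR adjusted p = 4.50e-09). EPHA2, EFNA5 and PLXNA1 differed by 0.43, 0.43 and 0.42, with edgeR adjusted p of 2.94e-13, 1.72e-07 and 7.74e-10, and in each the libraries of the 2 groups did not overlap. PLXNB1 and PLXNB3 were also higher, by 0.34 ± 0.09 (edgeR adjusted p = 0.00185) and 1.17 ± 0.33 (edgeR adjusted p = 0.00477), and SLIT3 by 0.29 ± 0.08 (edgeR adjusted p = 0.00162).

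Higher in MEP50 knockdown, and so negative on the same scale, were PLXNA2, at -0.97 ± 0.15 (edgeR adjusted p = 1.03e-06), and SEMA6A, its ligand, at -0.68 ± 0.14 (edgeR adjusted p = 0.000111). UNC5D, lower than the control in both, differed by -1.16 ± 0.10 with an edgeR adjusted p of 3.74e-12. EPHA3 and PLXND1, also lower in both, were lower in PRMT5 than in MEP50 knockdown, at -0.56 ± 0.04 (edgeR adjusted p = 1.90e-15) and -0.30 ± 0.05 (edgeR adjusted p = 2.16e-05). SEMA4B, EPHB4 and NAV1, higher than the control in both, were higher still in MEP50 knockdown, at -0.50, -0.30 and -0.41, with edgeR adjusted p of 1.21e-09, 6.55e-06 and 3.29e-07. SEMA6B differed by -0.32 ± 0.08 (edgeR adjusted p = 0.00202) and DPYSL2 by -0.10 ± 0.03 (edgeR adjusted p = 0.00232).

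The last 5 called differences were smaller or less steady. NEO1 was higher in PRMT5 knockdown by 0.63 ± 0.24 (edgeR adjusted p = 0.0378) with overlapping libraries, and the call was lost in 6 of 16 alternatives, at 0.34 to 0.66. The single libraries behind this were PRMT5 knockdown replicates 1 (0.66) and 2 (0.34) and MEP50 knockdown replicates 1 (0.49) and 3 (0.56). PLXNA3, at 0.39 ± 0.13 (edgeR adjusted p = 0.0124), lost its call without PRMT5 knockdown replicate 3 (0.25) or MEP50 knockdown replicate 3 (0.30). SEMA4G, at -0.28 ± 0.10 (edgeR adjusted p = 0.0303), lost it without PRMT5 knockdown replicate 2 (-0.18), MEP50 knockdown replicate 2 (-0.26) or replicate 3 (-0.21). NTN4, at 0.16 ± 0.06 (edgeR adjusted p = 0.0177), lost it without PRMT5 knockdown replicate 2 (0.11) or MEP50 knockdown replicate 3 (0.14), and NRP1, at 0.11 ± 0.03 (edgeR adjusted p = 0.00446), without MEP50 knockdown replicate 2 (0.08).

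Among the 30 members not called between the knockdowns were several with large rises over the control. SEMA3E differed by -0.13 ± 0.08 (edgeR adjusted p = 0.233), EFNB2 by 0.10 ± 0.06 (edgeR adjusted p = 0.229), NRP2 by -0.21 ± 0.11 (edgeR adjusted p = 0.131) and PLXNC1 by 0.55 ± 0.30 (edgeR adjusted p = 0.156). NRP2 was called without PRMT5 knockdown replicate 3 (-0.34). EPHA6 differed by 0.50 ± 0.23 (edgeR adjusted p = 0.0845) and was called without PRMT5 knockdown replicate 1 (0.63). ROBO1 lay at the threshold, at -0.08 ± 0.03 (edgeR adjusted p = 0.0532), and was called in 5 of 16 alternatives (-0.11 to -0.08), among them those without control replicate 1 or 3 or PRMT5 knockdown replicate 1. A p above the threshold does not show that these genes had equal levels.

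**Figure D4:**
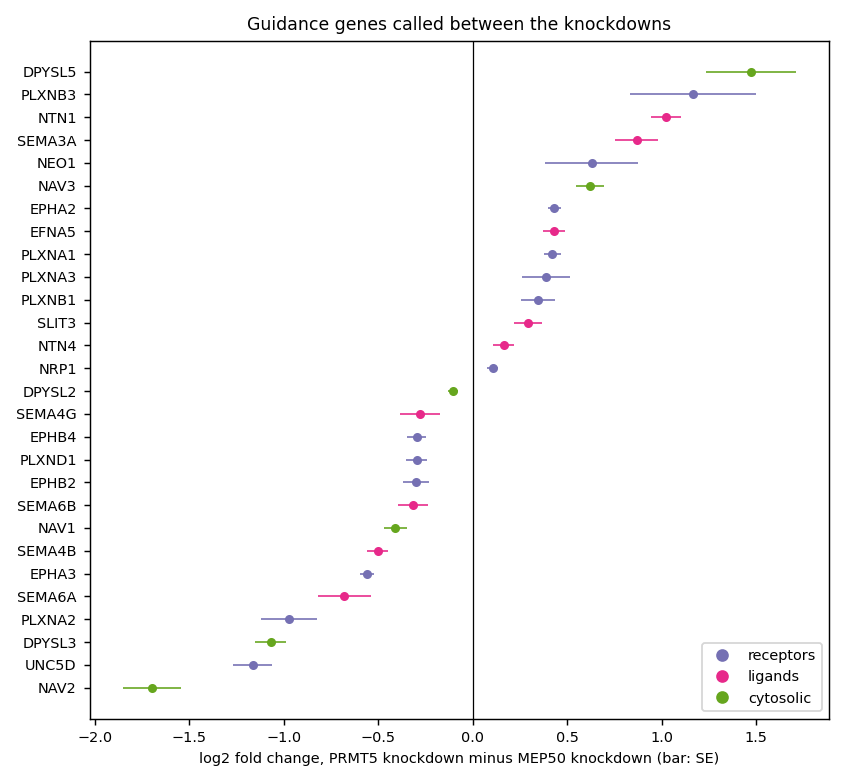
Log2 fold change of PRMT5 minus MEP50 knockdown, with its SE, for the 28 members called between them, coloured by role (receptors, ligands, cytosolic proteins). Points right of 0 are higher in PRMT5 knockdown, from NRP1 (0.11) to DPYSL5 (1.47), and points left of 0 are higher in MEP50 knockdown, from DPYSL2 (-0.10) to NAV2 (-1.70).

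Genes that act with these receptors were read from 2 lists outside the symbol rule, also drawn up with earlier results of these data known, 27 kinases and adaptors and 39 other guidance ligands and receptors, of which 27 were tested in each. Of the kinases and adaptors, 37.0% were called in PRMT5 knockdown, 48.1% in MEP50 knockdown and 25.9% between the knockdowns, beside 51.0%, 51.7% and 39.7% of all genes. Of the other ligands and receptors, 66.7%, 70.4% and 59.3% were called in the same order. Their median log2 changes were 0.07, 0.13 and -0.01 in the former list and 0.06, 0.09 and 0.04 in the latter. As for the members, values of these genes against the control are a description and are given without p-values. Genes given with an adjusted p between the knockdowns were named because their differences were among the largest of their list. Those values are a description too.

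The 27 kinases and adaptors, all tested, had 0 called changes of 2-fold or more, with 6 higher and 4 lower in PRMT5 knockdown and 10 and 3 in MEP50 knockdown. PTK2, focal adhesion kinase, went from 129 ± 3.41 CPM in the control to 202 ± 1.18 in PRMT5 and 196 ± 2.22 in MEP50 knockdown. MICAL2, of the plexin effector family that oxidises actin, went from 21.6 ± 2.09 CPM in the control to 34.5 ± 1.80 in PRMT5 and 33.7 ± 1.82 in MEP50 knockdown. PTK2 and MICAL2 were called higher in both knockdowns. The adaptor SHC1 was called lower in PRMT5 knockdown, from 290.5 ± 5.75 CPM in the control to 200.2 ± 3.17 in PRMT5 and 294 ± 4.32 in MEP50 knockdown. It differed between the knockdowns by -0.56 ± 0.03 (edgeR adjusted p = 7.69e-19). SDCBP, syntenin, which binds the tail of B-type ephrins, was also called lower in PRMT5 and not in MEP50 knockdown, and the knockdowns differed by -0.28 ± 0.03 (edgeR adjusted p = 1.14e-09). ADAM10, the protease that sheds ephrins, was called lower in both, from 323 ± 1.13 CPM in the control to 251 ± 8.64 in PRMT5 and 226 ± 3.15 in MEP50 knockdown. ABL1 was called higher in MEP50 knockdown, by 0.24 ± 0.04 over the control.

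Among the other guidance ligands and receptors, 11 were higher and 7 lower of 27 tested in PRMT5 knockdown, and 11 and 8 in MEP50 knockdown. FLRT3, a membrane ligand of UNC5 receptors, showed the largest change of both lists. FLRT3 (ENSG00000125848) was at 74.9, 79.8 and 81.8 CPM in the control, 12.0, 10.7 and 11.1 in PRMT5 and 12.1, 12.5 and 9.86 in MEP50 knockdown. Control libraries were all more than 5 times as high as any knockdown library, with changes of -2.81 ± 0.07 in PRMT5 and -2.79 ± 0.07 in MEP50 knockdown. FLRT3 and UNC5D were thus both lower in both knockdowns, again a description only. CNTN1, a cell adhesion molecule of axons, went from 409 ± 4.96 CPM in the control to 138 ± 8.73 in PRMT5 and 291 ± 16.1 in MEP50 knockdown, and the knockdowns differed by -1.08 ± 0.04 (edgeR adjusted p = 4.37e-20). FZD3, a Wnt receptor of guided axons, fell from 43.5 ± 2.74 CPM in the control to 28.3 ± 2.41 in PRMT5 and 20.1 ± 1.51 in MEP50 knockdown. LRIG1, a regulator of receptor tyrosine kinases, rose in PRMT5 knockdown by 1.74 ± 0.27 from 65 reads in the control to 234, against 58 in MEP50 knockdown. L1CAM, an adhesion molecule that associates with NRP1, fell in MEP50 knockdown, with a log2 change of -1.47 ± 0.37, from 109 reads to 34.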

How the data were processed

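RNA was measured in 9 A549 libraries, 3 per group. The authors deposited whole-number read counts per Ensembl gene, made from hg19 with Trim Galore, STAR and HTSeq, per the submitters' processing notes; versions, annotation and strand setting are not given in the sources used here. The 5 summary lines of the counter (15.5% of counts) were left out, and the authors' own fold-change tables were not used. Where genes overlap on opposite strands, or members of a family share sequence, the split of reads depends on that counting.

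Counts were fitted in R 4.3.3 with edgeR 4.0.16: filterByExpr (14582 of 51796 genes), TMM scaling, 1 quasi-likelihood fit of all 9 libraries by group, and Benjamini-Hochberg adjustment over all tested genes at 0.05. An SE is the log2 fold change divided by the square root of F. The biological coefficient of variation was 0.0395, and replicates differed by more than sampling noise. Without separate cultures being stated, p-values measure the spread between these libraries, which may be technical. Symbols came from a separate reference list of gene names, biotypes and exon lengths from GENCODE 29, and promoter windows from RefSeq on GRCh38.p14. The fit was also run on simulated counts, with the same spread for every gene and few changed genes. These data differ in both, so that run does not show how reliable the calls are here.

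The members and lists were chosen with earlier results of these data known. The text names, per family, the most abundant member, the 3 largest called changes per comparison (from an average of 1 CPM upward, and with libraries that do not overlap), members called in opposite directions, and, per list of interacting genes and comparison, the 3 largest by the same rule. One further list is not reported here. PLXNC1, PLXNB3, EPHB4, EPHA5, EFNB1, SEMA4C, SEMA6B, SEMA3D, SEMA4F, SEMA4G, PLXNA3, UNC5CL and UNC50 fall outside the naming rule, having been chosen after their values were seen. The untested genes given with read counts also fall outside that rule. The alternatives tried were other scalings (RLE, library totals), DESeq2 1.42.0, other filters, a replicate block, fits of 6 libraries, and leaving out each library.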

Additional observations from a re-analysis of the deposited data

Results flagged for a closer look

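Both knockdowns were set against the same control libraries, and 2 members were called in opposite directions in them. EFNA5 was higher than the control in PRMT5 and lower in MEP50 knockdown, in all 3 libraries of each group, and the direct difference, PRMT5 minus MEP50, was 0.43 on the log2 scale. PLXNA2 was lower in PRMT5 and higher in MEP50 knockdown, again in all 3 libraries of each, and the direct difference was -0.97. Both were also called in the direct comparison. Choosing genes by opposite calls against the same control largely fixed that outcome, so it is no separate evidence. The cause was not tested.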

How the results depend on the processing

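The counts of called members stayed within 1.5 times under all 16 alternatives. In PRMT5 knockdown 26 to 30 were called higher and 13 to 15 lower when 1 library was left out (29 to 31 and 14 to 15 under the other alternatives), in MEP50 knockdown 24 to 26 and 13 to 14 (25 and 12 to 14), and between the knockdowns 11 to 14 and 14 to 16 (13 to 14 and 14 to 15). The counts over all genes also stayed within 1.5 times. Of 157 values of named genes, 136 kept their direction and their side of the threshold in all alternatives that gave a value, and the others are named beside their results or here. The slight rise of WDR77 in PRMT5 knockdown (0.16) lost its call in 6 alternatives, at 0.11 to 0.16. PLXNB1 was called in MEP50 knockdown without control replicate 1 (0.28) or MEP50 knockdown replicate 1 (0.26), and PLXNA3 in PRMT5 knockdown without control replicate 3 (0.36) or PRMT5 knockdown replicate 1 (0.34). Values that changed sign were all uncalled and near 0: between the knockdowns, EFNA1 (0.10, and 0.27 without MEP50 knockdown replicate 2) went to -0.06 without PRMT5 knockdown replicate 2 and to -0.01 without MEP50 knockdown replicate 3, and PLXNB2 (0.01, and at most 0.03, without PRMT5 knockdown replicate 2) to -0.02 and -0.01 without PRMT5 or MEP50 knockdown replicate 3. The cause of these changes was not tested.

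Replicate numbers did not pair the libraries: same-numbered libraries had correlations of their deviations from -0.0382 to 0.0561. With the replicate block 1 named call was lost, that of PLXNB2 in PRMT5 knockdown (0.08), 30 members were called higher and 15 lower in that knockdown, and the other counts of members were 25 and 13 in MEP50 knockdown and 14 and 14 between the knockdowns, as without it. Under the 3 scalings the median log2 fold change of all genes lay between -0.016 and 0.022. Depth limits members near or under 1 CPM, such as EPHA4, PLXNC1 and SEMA3D, which had 16 to 141 reads per group.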
